A study of Mus musculus with 2 samples.

Results

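The genes described here are 9 inflammatory chemokine genes, Cxcl1, Cxcl2, Cxcl3 and Cxcl10 on mouse chromosome 5 and Ccl2, Ccl3, Ccl4, Ccl5 and Ccl7 on chromosome 11, of 21887 protein-coding genes in the mm10 annotation. They were taken by name, and every KAT8 peak lying between 50 kb before and 50 kb after one of them was included, which gave 6 of the 52001 peaks of the untreated list and 14 of the 44772 peaks of the R848 list. The peaks come from CUT&Tag, in which an antibody, here against the lysine acetyltransferase KAT8, directs a transposase to cut and tag nearby DNA. The cells were wild-type primary mouse macrophages grown from bone marrow in 20 ng/ml M-CSF, the growth factor that drives macrophage differentiation. One group was untreated (1 library), and the other was given R848, an agonist of the endosomal receptor TLR7, at 100 ng/ml for 2 h (1 library). The labels name no strain, age, sex or number of animals. Since each group is a single library, the differences below could not be set against replicate spread and were not tested.

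KAT8, also called MOF, acetylates histone H4 and works in the MSL and NSL chromatin complexes. Chemokines are small secreted proteins that guide leukocyte migration. CXCL1, CXCL2 and CXCL3 attract neutrophils through CXCR2, CXCL10 attracts activated T cells through CXCR3, CCL2 and CCL7 attract monocytes through CCR2, and CCL3, CCL4 and CCL5 attract monocytes and T cells. Their genes lie in clusters of tandem copies, and in macrophages many of them are induced through NF-kB after Toll-like receptor stimulation.

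At Cxcl2 a peak of the R848 list covered the whole stretch just before the gene start, and the 250 bases before the start of Cxcl2 are shown with those of Cxcl1, Cxcl3 and Cxcl10, which no peak of either list reached. They run 5′ to 3′ on the gene's own strand and come from RefSeq, build GRCm38.p6, the assembly of mm10, at chr5:90903649-90903898 (plus strand), chr5:90890995-90891244 (plus), chr5:90785851-90786100 (plus) and chr5:92348890-92349139 (minus) in the order printed. Capitals mark matches on either strand to the NF-kB site, searched as GGG and TTCC separated by any 3 bases, and to the TATA box TATAAA.
Cxcl2: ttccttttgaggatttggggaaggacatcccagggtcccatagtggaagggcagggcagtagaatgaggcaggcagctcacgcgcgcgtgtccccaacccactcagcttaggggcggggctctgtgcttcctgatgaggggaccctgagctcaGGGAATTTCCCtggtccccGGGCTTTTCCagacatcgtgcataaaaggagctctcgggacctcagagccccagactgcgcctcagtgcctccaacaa
Cxcl1: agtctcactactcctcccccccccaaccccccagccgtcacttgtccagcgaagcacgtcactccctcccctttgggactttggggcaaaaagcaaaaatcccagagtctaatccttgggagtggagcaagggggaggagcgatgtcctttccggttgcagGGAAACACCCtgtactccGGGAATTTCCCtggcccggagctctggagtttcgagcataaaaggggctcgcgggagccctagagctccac
Cxcl3: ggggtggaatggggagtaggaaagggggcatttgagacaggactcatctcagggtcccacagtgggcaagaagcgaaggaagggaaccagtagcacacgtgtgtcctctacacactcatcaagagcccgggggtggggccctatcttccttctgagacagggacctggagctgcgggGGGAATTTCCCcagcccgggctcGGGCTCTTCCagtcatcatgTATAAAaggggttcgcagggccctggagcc
Cxcl10: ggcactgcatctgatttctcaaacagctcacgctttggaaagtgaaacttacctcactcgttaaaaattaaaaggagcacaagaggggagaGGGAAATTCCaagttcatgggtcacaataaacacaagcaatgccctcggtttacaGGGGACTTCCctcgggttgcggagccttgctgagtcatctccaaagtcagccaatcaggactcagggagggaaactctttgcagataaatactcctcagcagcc

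Matches to the NF-kB site were present in these 4 windows and absent from that of Ccl3, the fifth of the 9 genes with a window in the table. Of 32851 such windows over all genes, 4.65% held a match. The same 10 letters, GGGAATTTCC, stood at positions −97 to −88 of Cxcl2, −71 to −62 of Cxcl1 and −73 to −64 of Cxcl3, counted from the first base of the gene, and on the opposite strand each overlapped a further match shifted by 1 base. Cxcl10 held GGGAAATTCC at −159 to −150 and GGGGACTTCC at −104 to −95. It was also the gene among these 5 with the interferon response site, searched as GAAA and GAAA separated by any 2 bases (2.98% of all windows) and the AP-1 site TGANTCA (6.75%). TATAAA was found in Cxcl3 (12.4% of all windows). None of the 5 held the C/EBP site TTGCNNAA (9.56%), and Ccl3 held the PU.1 core GAGGAA (23.3%). The windows of Cxcl1, Cxcl2 and Cxcl3 were 52.0% to 58.7% identical in pairwise alignment, and their longest run of identical bases was 14. Pairs that included Cxcl10 or Ccl3 were 47.3% to 52.0% identical, so the lower end of the first range is no higher than between these. A motif match is a description of the letters and not a measured site.

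**Figure D1:**
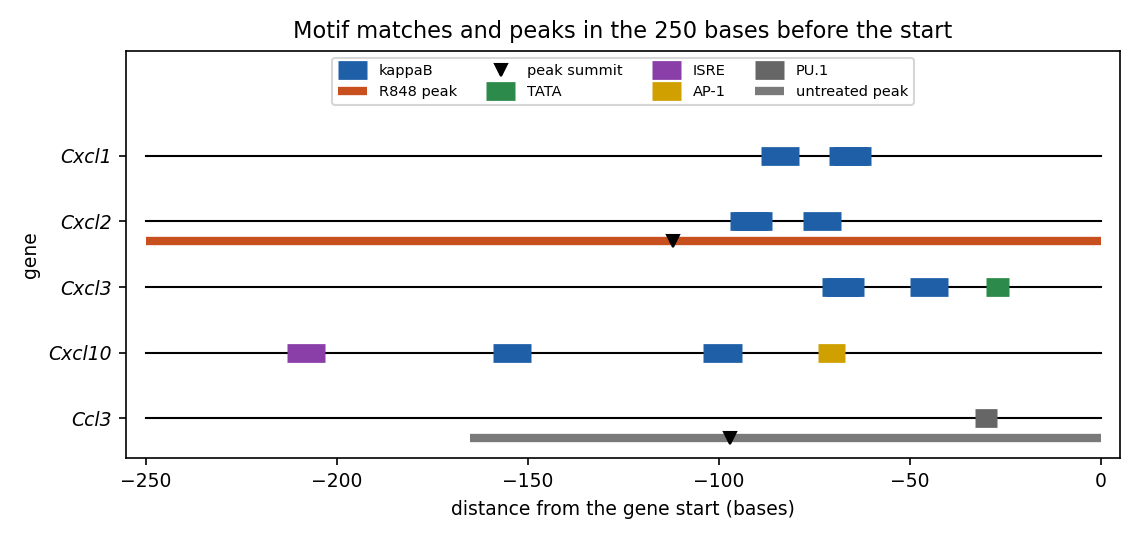
Motif matches (coloured blocks) in the 250 bases before the start of 5 chemokine genes, with the part of each window under a peak drawn as a bar below the line and the summit as a triangle. The x axis is the distance from the gene start in bases. The R848 peak at Cxcl2 spans the window with its summit at −112, and the untreated peak at Ccl3 reaches to 165 bases before the start.

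In the neutrophil-attracting group, the 2 lists differed in which gene had a peak at its end. Cxcl2 had a gene-end peak, meaning one with any base within 1000 bp of the first or last base of the gene, after R848 and not in untreated cells. Cxcl3 had one in the untreated list and not in the R848 list, and Cxcl1 had none in either. The Cxcl2 peak (chr5:90903639-90904259) was 621 bp wide and ran from before the start into the gene. The authors' values for it were a fold over background of 4.08, a −log10 p of 6.78 and a −log10 q of 3.27, and 10.8% of R848 peaks had a higher fold. Its summit, at position −112, was 15 bases from the nearer of the NF-kB matches on the gene's strand and 34 bases from the other. A second R848 peak (chr5:90906631-90906905, 275 bp) began 693 bp past the other end of Cxcl2 and was weak, with a fold of 2.47, a −log10 p of 2.78 and a −log10 q of 0.233. No untreated peak lay within 50 kb of Cxcl2, and the nearest was 90323 bp away. Of all protein-coding genes, 4.56% were as far or farther from an untreated peak.

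Fragment counts put the Cxcl2 peak beside the depth of the libraries. The number of fragments over a summit (the pileup) was solved from the authors' fold and p-value of each peak. At Cxcl2 it was 14 in the R848 library, with an exact 95% Poisson interval of 7.65 to 23.5 that covers counting error only. Untreated peaks had a local background of 3.37 fragments or more and R848 peaks of 2.62 or more, a ratio of 1.29, so the R848 library was the shallower by this measure. Scaled by that ratio, the Cxcl2 summit corresponds to 18.0 fragments (9.8 to 30.2) at the untreated depth, where the lowest pileup of any called peak was 8. The summit is the highest point of its peak, so such values are biased upwards.

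The untreated peak at Cxcl3 (chr5:90785186-90785387, 202 bp) ended 714 bp before the gene start. It had a fold of 3.20, a −log10 p of 4.91, a −log10 q of 1.75 and a pileup of 13, which corresponds to 10.1 fragments (5.4 to 17.3) at the R848 depth. The lowest called R848 pileup was 7, so the interval includes heights below the calling limit. Its summit lay at position −906, outside the printed window. No R848 peak overlapped it, and the nearest was 27355 bp away.

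The interval between Cxcl3 and Cxcl1, which the annotation leaves free of genes beyond Cxcl15, held the other peaks of this cluster. One pair coincided: the R848 peak chr5:90812742-90813165 (424 bp) and the untreated peak chr5:90812748-90813119 (372 bp) overlapped by 372 bp. Both were weak. The first had a fold of 2.49, a −log10 p of 2.81 and a −log10 q of 0.233, and the second a fold of 2.52, a −log10 p of 3.12 and a −log10 q of 0.462. A stronger untreated peak followed at once (chr5:90813324-90813576, 253 bp, fold 3.76, −log10 p 6.70, −log10 q 3.27), 159 bp from the end of that R848 peak and without an overlap. It had the highest fold of the 3 untreated peaks near Cxcl3.

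Further along this gene-free stretch the R848 list alone had peaks. The peak chr5:90818460-90818792 (333 bp) had a fold of 3.32, a −log10 p of 4.70 and a −log10 q of 1.51. The peak chr5:90829103-90829399 (297 bp) had a fold of 2.49, a −log10 p of 2.81 and a −log10 q of 0.233. The third, chr5:90849358-90849594 (237 bp), lay 41651 bp before Cxcl1 and had the highest fold of the R848 peaks in the cluster, 4.42, with a −log10 p of 7.70, a −log10 q of 4.04 and a pileup of 15. At the untreated depth that pileup corresponds to 19.3 fragments (10.8 to 31.8), and the nearest untreated peak was 35782 bp away. Between the last 2 lay an R848 peak (chr5:90840134-90840435, 302 bp, fold 3.59, −log10 p 5.41, −log10 q 2.07) that was 50810 bp from Cxcl1 and was not counted, since it fell just outside the 50 kb windows of both Cxcl3 and Cxcl1. Cxcl1 thus had 3 R848 peaks within 50 kb, of which 2 were those at Cxcl2, and none nearer than 10518 bp.

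**Figure D2:**
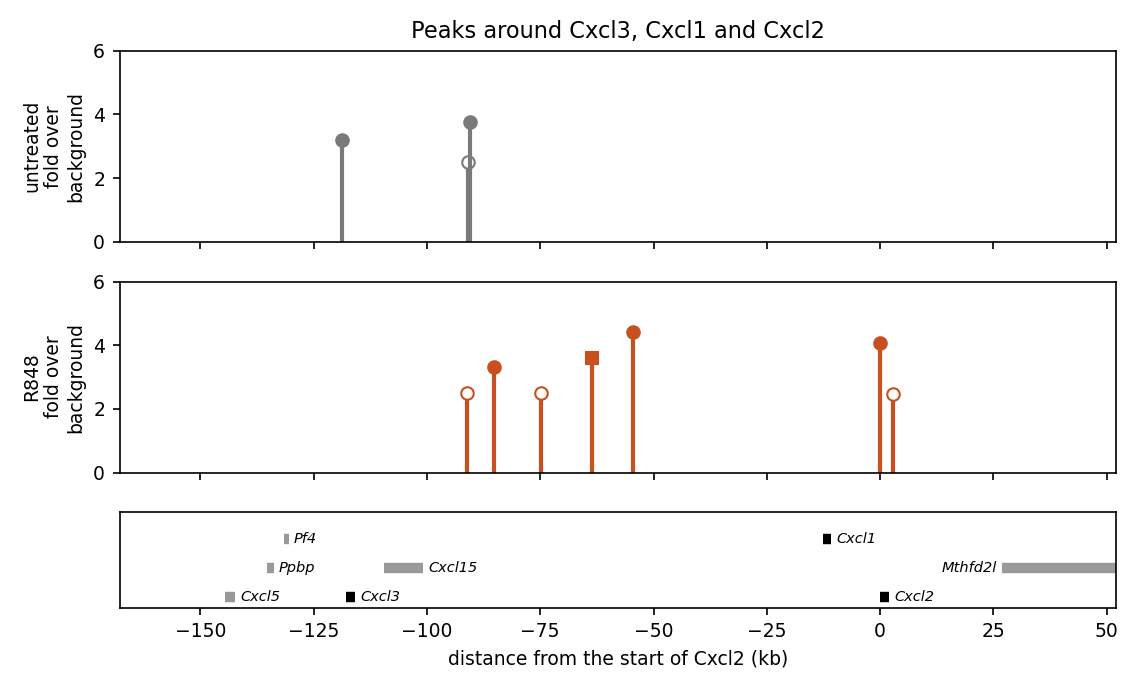
Peaks around Cxcl3, Cxcl1 and Cxcl2 by list, each drawn at its summit. The x axis is the distance from the start of Cxcl2 in kb and the y axis the authors' fold over background, which ranks peaks within a list only. Filled symbols have a q-value of 0.05 or less, open symbols do not, and the square is the peak outside the 50 kb windows. The bottom panel shows the genes, with the described ones in black. R848 peaks of fold 4.08 and 2.47 stand at Cxcl2 where the untreated panel is empty.

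Cxcl10, the interferon-responsive member, had no peak within 50 kb in either list. The nearest peak was 62523 bp away in the untreated list, a weak one inside Art3 (fold 2.75, −log10 q 0.831), and 86152 bp away in the R848 list, near Nup54 (fold 3.04, −log10 q 1.01). Cxcl9, which like Cxcl10 signals through CXCR3, lies in the same window and had no peak inside it or at its ends.

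Ccl2 and Ccl7, the monocyte-attracting pair, also had no peak within 50 kb in either list. The nearest peak to Ccl2 was 145081 bp away in the untreated list and 102980 bp away in the R848 list, and for Ccl7 the distances were 135008 and 113115 bp. Of all protein-coding genes, 2.0% were as far as Ccl2 from an untreated peak and 5.36% as far from an R848 peak. Ccl11, an eosinophil-attracting chemokine gene in the same window, likewise had none. In all, 3 of the 9 genes had no peak within 50 kb in either list, against 6.31% of protein-coding genes.

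Around Ccl5, Ccl3 and Ccl4 the R848 list held 8 peaks and the untreated list 3. The strongest was present in both lists, 24742 bp from Ccl5 on the side of higher coordinates and outside any annotated gene. The R848 peak there (chr11:83555260-83556196, 937 bp) had a fold of 4.72, a −log10 p of 9.51 and a −log10 q of 5.70, and 4.98% of R848 peaks had a higher fold. The untreated peak (chr11:83555352-83555980, 629 bp) lay wholly within it and had a fold of 4.58, a −log10 p of 9.22 and a −log10 q of 5.51, with 4.4% of untreated peaks higher. Both summits held 19 fragments. Scaled to the other library, the R848 pileup becomes 24.4 (14.7 to 38.2), an interval that includes the untreated value.

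Ccl5 itself had no gene-end peak. The R848 list had 3 further peaks within 50 kb of it, with a q-value above 0.05 at each. The nearest (chr11:83523953-83524321, 369 bp) was 1457 bp from the gene and had a fold of 3.04, a −log10 p of 4.03 and a −log10 q of 1.01. The next (chr11:83534858-83535151, 294 bp) was 4340 bp away on the other side and had a fold of 2.76, a −log10 p of 3.40 and a −log10 q of 0.581. These 2 lay inside Gm32650, a long non-coding RNA gene that contains Ccl5. The last (chr11:83569491-83570034, 544 bp) lay at the end of the pseudogene Ccl16-ps and had a fold of 3.01, a −log10 p of 4.35 and a −log10 q of 1.29. No untreated peak overlapped them.

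Ccl3 and Ccl4 had gene-end peaks in both lists, at positions that did not overlap. Ccl4 in this annotation runs from inside Ccl3 to 83664683, with a curated and a predicted transcript, so peaks at the start of Ccl3 count for both genes. The untreated peak (chr11:83649344-83649543, 200 bp) covered the start of Ccl3 with its summit at position −97, and was among the weakest of its list: fold 2.06, −log10 p 2.11, −log10 q 0 and a pileup of 8, with 98.2% of untreated peaks higher in fold. The R848 list had a peak inside Ccl3 (chr11:83648940-83649263, 324 bp, fold 3.59, −log10 p 5.41, −log10 q 2.07) with its summit at position 314. It ended 81 bp from the untreated one. A further R848 peak lay deeper in the gene (chr11:83648300-83648499, 200 bp, fold 2.76, −log10 p 3.40, −log10 q 0.581).

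Past the far end of Ccl4, 700 bp away, the R848 list had a broad peak (chr11:83665383-83666190, 808 bp). Its fold was 4.05, its −log10 p 7.27 and its −log10 q 3.68, and its summit of 16 fragments corresponds to 20.6 (11.8 to 33.4) at the untreated depth. The nearest untreated peak was 15840 bp away. On the other side of Ccl3 each list had a 200 bp peak: the untreated one (chr11:83639760-83639959, 7884 bp from the gene, fold 2.29, −log10 p 2.60, −log10 q 0.163) and the R848 one (chr11:83640015-83640214, fold 3.32, −log10 p 4.70, −log10 q 1.51) were 56 bp apart. No other peak lay within 50 kb of these genes.

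**Figure D3:**
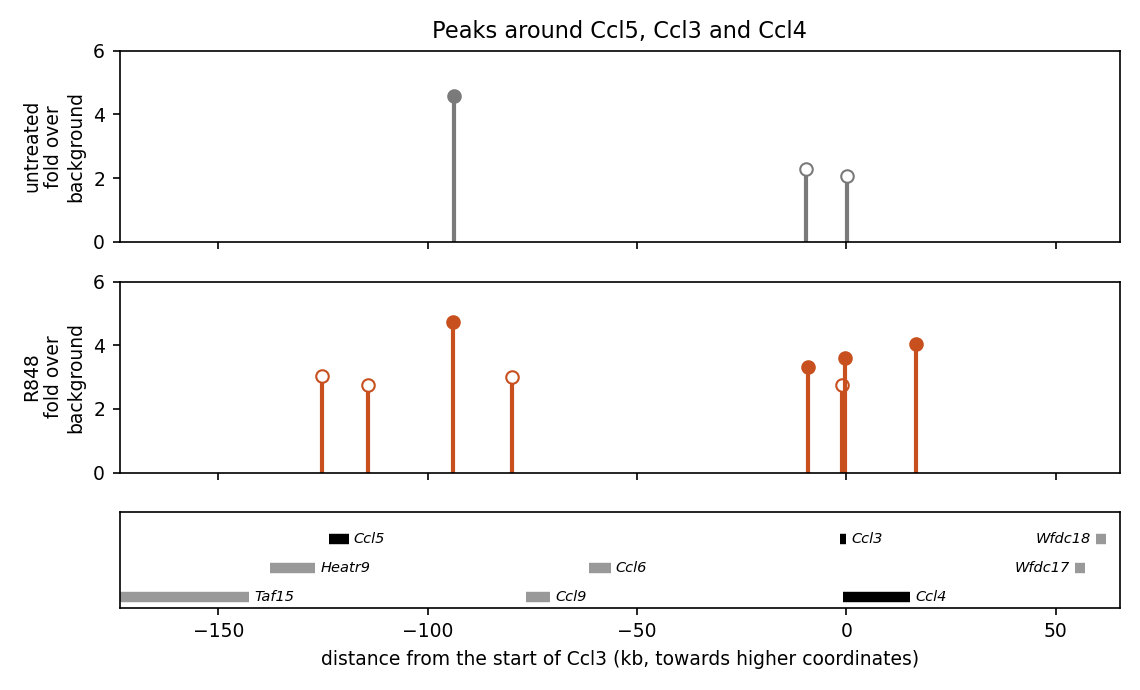
Peaks around Ccl5, Ccl3 and Ccl4 by list, drawn as for the Cxcl cluster. The x axis is the distance from the start of Ccl3 in kb, and the y axis the authors' fold over background. Filled symbols have a q-value of 0.05 or less and open symbols do not. The peak between Ccl5 and Ccl9 stands in both panels (fold 4.58 and 4.72), and the peak past Ccl4 (fold 4.05) in the R848 panel.

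Counted over the 9 genes, untreated gene-end peaks were found at 3 (Cxcl3, Ccl3 and Ccl4) and R848 gene-end peaks at 3 (Cxcl2, Ccl3 and Ccl4), where 28.8% and 24.4% of protein-coding genes had one. The untreated peak at Ccl4 was the one at the start of Ccl3, so that site was counted for both genes. At the far end of Ccl4 only the R848 list had a peak. Cxcl1, Cxcl10, Ccl2, Ccl5 and Ccl7 had none in either list, as had 64.1% of protein-coding genes. The R848 list alone had one at 1 gene, Cxcl2 (7.11% of protein-coding genes), the untreated list alone at 1 gene, Cxcl3 (11.5%), and both lists at Ccl3 and Ccl4 (17.3%). These shares are near the background. With peaks of a q-value up to 0.05 in both lists, the R848-only genes were Cxcl2, Ccl3 and Ccl4 (4.6% of protein-coding genes), since the untreated peak at Ccl3 and Ccl4 did not reach that threshold, and Cxcl3 was the untreated-only gene (6.15%). At that threshold 3 genes had an R848 gene-end peak (15.1%) and 1 an untreated one (16.7%). Gene-end windows of 500 bp gave 1 gene untreated (25.3%) and 3 after R848 (21.2%), of which 2 were R848-only (5.82%). With those windows 0 of the 9 genes were untreated-only, where 2189 of the 21887 protein-coding genes were. Windows of 3000 bp gave 3 (38.0%) and 4 (32.9%), of which Cxcl2 and Ccl5 were R848-only (9.89%) and Cxcl3 untreated-only (15.0%).

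The wider windows differed more. At least 1 peak within 50 kb was found at 4 genes untreated and at 6 after R848, against 89.0% and 85.8% of protein-coding genes. The median number of peaks within 50 kb was 0 untreated and 3 R848 over the 9 genes, and 3 and 2 over all protein-coding genes. More R848 than untreated peaks were found at 5 genes (Cxcl1, Cxcl2, Ccl3, Ccl4 and Ccl5), equal numbers at 4 and fewer at 0, whereas 28.1% of protein-coding genes had more, 25.3% equal numbers and 46.7% fewer. Cxcl1 and Ccl5 each had 3 more R848 peaks, a difference reached by 6.11% of protein-coding genes, and Cxcl2, Ccl3 and Ccl4 had 2 more, reached by 13.5%. The genes are not independent here: the windows of Cxcl1 and Cxcl2 share 2 of their R848 peaks, and those of Ccl3 and Ccl4 hold the same peaks. Those of Ccl2 and Ccl7, without a peak, largely coincide.

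**Figure D4:**
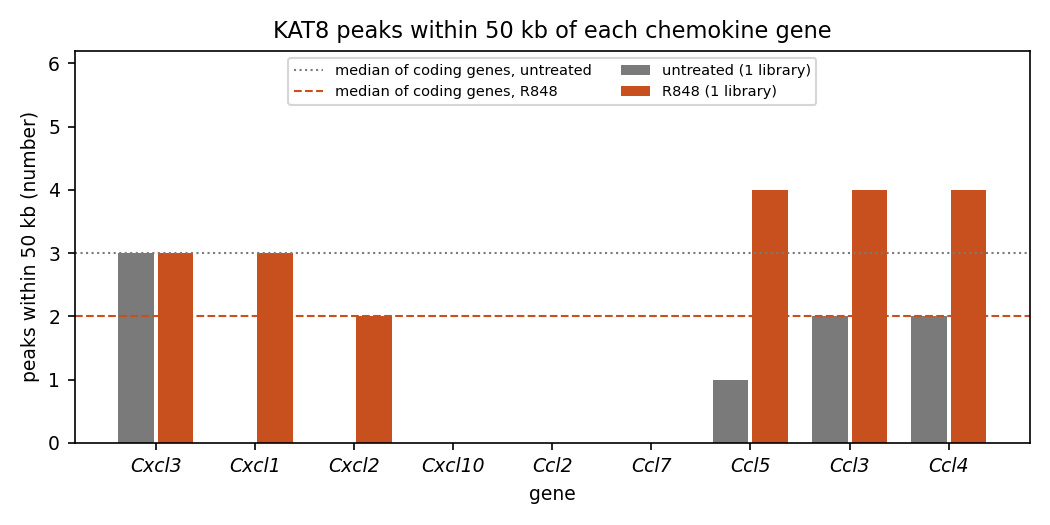
Number of peaks within 50 kb (y axis) of each chemokine gene (x axis) in the untreated and R848 lists, 1 library each, with the medians over all protein-coding genes as lines at 3 and 2. Ccl5, Ccl3 and Ccl4 have 4 R848 peaks each, and Cxcl10, Ccl2 and Ccl7 have none in either list.

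**Figure D5:**
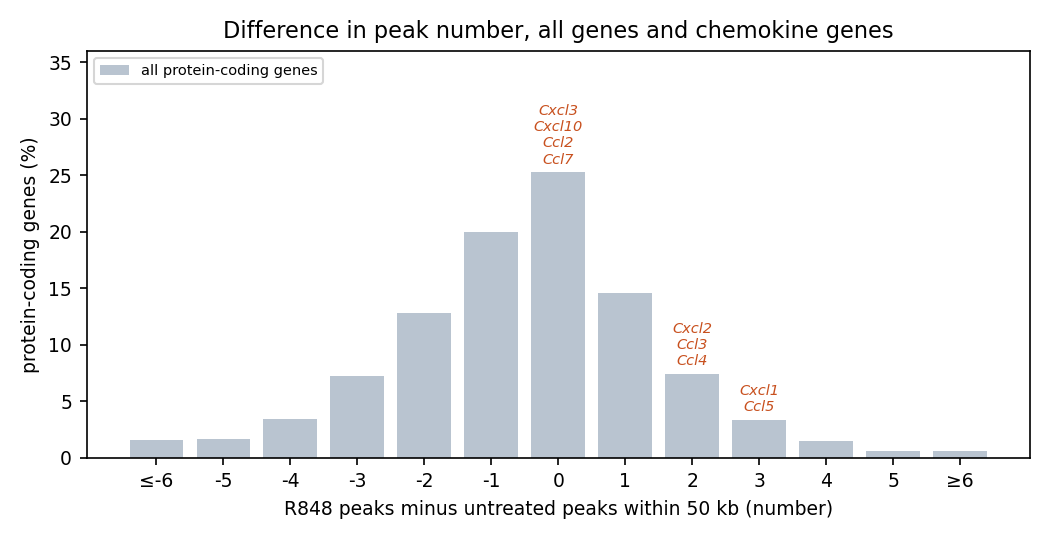
Difference in the number of peaks within 50 kb, R848 minus untreated (x axis), as a percentage of all protein-coding genes (y axis), with the chemokine genes named above their bars. The 9 genes stand at 0, 2 and 3, and no gene of the set lies below 0.

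Of the 14 R848 peaks, 2 overlapped an untreated peak and 12 did not. Of the 6 untreated peaks, 2 overlapped an R848 peak and 4 did not. In the whole lists 35.8% of R848 peaks (95% exact binomial interval 35.4 to 36.3) and 31.0% of untreated peaks (30.6 to 31.4) overlapped the other list by at least 1 bp. A q-value of 0.05 or less was reached by 7 of the 14 R848 peaks and 3 of the 6 untreated peaks, against 41.1% and 36.3% of the whole lists. At the untreated depth, all 14 R848 summits scale to at least 8 fragments, the lowest pileup called there. This was fixed beforehand for any R848 peak, since the lowest R848 pileup was 7 and the depth ratio 1.29, so it says nothing particular to the 14. The lower bound of the interval exceeds 8 for 4 of the 14: the peaks at Cxcl2, before Cxcl1, past Ccl4 and the shared one near Ccl5. These summits were selected as the highest points of called peaks in 1 library, so the bound does not exclude counting error for those 4 either. The share of all R848 peaks with such a bound is not given, so 4 of 14 cannot be read as particular to these genes. For the other 10, of which 1 overlapped an untreated peak, the interval reaches down to the calling limit or below it, so absence from the untreated list is not distinguishable from counting error at this depth.

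Other genes of the chemokine system were counted in the same windows. Of 28 other chemokine genes, 10 had more R848 and 11 more untreated peaks within 50 kb, and of 23 chemokine receptor genes 6 and 8 did. Over all protein-coding genes the shares were 28.1% and 46.7%. Some of the 28, such as Cxcl15 and Ccl9, lie in the windows described above and count some of the same peaks, so they are not an independent comparison. Of the 28, 1 had an untreated gene-end peak and 4 an R848 one, where 28.8% and 24.4% of protein-coding genes had one. Cxcl16, a membrane-bound chemokine of macrophages, had its strongest at fold 4.03 and Ccl27a at 3.32, both in the R848 list only, as had Ccl19 (2.31), which guides T cells and dendritic cells through CCR7. Ccl25 had peaks in both lists (3.66 untreated and 3.87 R848). Among the 23 receptors, 2 had an untreated and 5 an R848 gene-end peak, against the same 28.8% and 24.4%. Xcr1 (5.04 and 4.70) and Cxcr4, the receptor for CXCL12 (4.29 and 4.14), had overlapping peaks in both. Ccr10 (3.85), Ccrl2 (3.19) and the decoy receptor gene Ackr1 (2.88) had one in the R848 list only. Cxcr2, Cxcr3 and Ccr2, whose products bind chemokines described above, had none. By the summed difference in peak number from the medians of the 9 genes, over 2 libraries, the gene most like them was Ccrl2 (0 untreated and 2 R848 peaks). The next 10 genes were tied, and the first 2 of them by symbol are Ackr1 (0 and 1) and Ccl20 (1 and 2).

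Markers of cell types were counted in the same way. Of 12 macrophage markers, 5 had an untreated and 6 an R848 gene-end peak (28.8% and 24.4% of protein-coding genes), among them Cebpb and Cd68 in both, while Csf1r, Lyz2, Adgre1, Itgam and Fcgr1 had none. Within 50 kb, where 28.1% of protein-coding genes had more R848 and 46.7% more untreated peaks, 2 of these 12 had more R848 and 5 more untreated peaks. Of 10 lymphoid markers, 8 had more R848 and 2 more untreated peaks. Gene-end peaks were in the R848 list only at 2 of the 10, against 7.11% of protein-coding genes. They were at Cd3d (fold 2.76, −log10 q 0.581) and Zap70 (3.39, −log10 q 1.81). Of 10 granulocyte and dendritic markers, 4 had more R848 and 2 more untreated peaks, and of 10 stromal markers 2 and 3 did. More R848 than untreated peaks were thus found at most lymphoid markers as well as at most of the chemokine genes. Genes lying close together share peaks in such windows, and the marker counts were not corrected for this. Whether the counts at lymphoid markers and at the chemokine genes have a cause in common was not tested. Peaks give the position of KAT8 signal and do not measure expression.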

How the data were processed

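KAT8 CUT&Tag was carried out on 1 untreated and 1 R848-treated culture of macrophages, grouped by the treatment label. Per the submitters' processing notes, the tools were MACS2 2.2.7.1, Bowtie 0.12.8 and DiffBind and the build mm10, with no role stated. Calling settings and use of a control library are not stated in the labels or files used here, and no control was analysed. The authors deposited 1 peak list per library, called per sample. Each peak has a deposited score, a ratio of summit pileup to local background (fold), a p-value and a q-value as −log10, and a summit. Deposited −log10 p values start at 2.01, so weak peaks are included. Read totals were not used here.

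Coordinates are 1-based. Gene positions are those of RefSeq for GRCm38.p6, in a table without strand, so windows of 1000 bp were set at both gene ends. A promoter table with strand held 5 of the 9 genes. Peaks were shared where they overlapped by at least 1 bp (checked with bedtools 2.31.1). Pileup and background were solved from the fold, as the ratio of each plus 1, and from the Poisson tail of the p-value, for peaks with a −log10 p under 250, and were whole within 0.05 in 100.0% of them. The code was tested on simulated data. Promoters were aligned with Biopython 1.88 (match 2, mismatch −1, gap −3 and −1). All 9 genes and all their peaks are named. Other chemokine and receptor genes are named where they have a gene-end peak, at most 6 per list by fold, together with the 3 genes most like the 9, ties by symbol. Receptors of the 9 chemokines, the marker genes and peaks beyond the windows were named after their values were seen; a few items are not reported here. The members and lists were chosen with earlier results of these data known. Alternatives were a q-value of 0.05, other windows, lists of equal length, stricter overlaps and, added after the data were seen, untreated pileups scaled to the R848 depth.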

Additional observations from a re-analysis of the deposited data

How the results depend on the processing

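The R848 list held more peaks within 50 kb than the untreated list under each alternative tried. With a q-value up to 0.05 the untreated list had 3 and the R848 list 7, of which 1 in each was shared. Of the whole lists, 36.3% of untreated and 41.1% of R848 peaks reached that q-value. Windows of 100 kb gave 11 and 20. Counts over all genes for 100 kb windows, and the share of all peaks shared at that q-value, are not given. Gene-end peaks were fewer in the untreated list under 3 settings: 1 gene had one with a q-value up to 0.05 (Cxcl3), 1 with windows of 500 bp (Ccl3) and 1 with untreated pileups scaled to the R848 depth (Cxcl3). Genes with a gene-end peak in the R848 list only became 3 with a q-value up to 0.05 (Cxcl2, Ccl3 and Ccl4), 2 with windows of 500 bp (Cxcl2 and Ccl4) and 2 with windows of 3000 bp (Cxcl2 and Ccl5). The untreated-only count became 0 with windows of 500 bp, where 2189 of the 21887 protein-coding genes were untreated-only. Cxcl2 was among the R848-only genes in each setting. No paired analysis was possible because each group had 1 library. Precision is limited by summits of 8 to 19 fragments.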

Other observations

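Beyond the windows described, some of the nearest peaks were present in both lists. Taf15, an RNA-binding protein gene that lies mostly inside the Ccl5 window, had overlapping peaks at its end just outside it, with a fold of 3.20 (untreated) and 3.87 (R848). At Afm, 243239 bp (untreated) and 243371 bp (R848) before Cxcl3, overlapping peaks had folds of 3.70 and 4.46. These are values of 1 library each.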
